A study of Heterocephalus glaber and Cavia porcellus and Spalacopus cyanus with 7 samples.

Results

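Zinc finger genes that carry a number in place of a descriptive name (Znf or Zfp followed by digits) were examined in guinea pig and naked mole-rat oocytes. They were chosen by symbol alone, without regard to case, as the symbols of this form found in the gene tables of both species. There were 222 such symbols in the guinea pig table and 230 in those of naked mole-rat. The 205 found in both, 11 of them named Zfp and 194 named Znf, are described here, out of 15082 symbols that the 2 species shared. The guinea pig oocytes came from 3 females aged 6 to 9 months and were merged into 1 library. The naked mole-rat oocytes came from 5 females aged 1 to 8 years, with 1 library per female. No treatment and no genotype is given for the animals, and the oocytes were fully grown or late in growth and stripped of cumulus cells by pipetting. The titles of naked mole-rat replicates 2 to 5 hold a letter, Y or O, that no source used here explains, and the 5 libraries were taken as replicates of 1 group. A coruro library of the same study was not used, because its counts cover other genes only.

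Most proteins of this kind bind DNA through tandem C2H2 fingers, in which cysteines and histidines hold a zinc ion. Many also carry a KRAB domain, which recruits the corepressor TRIM28 and through it the histone methyltransferase SETDB1, and are known for the silencing of transposons and, in the early embryo, for keeping methylation at imprinted genes. Others carry a SCAN domain, which mediates dimerisation, and some act on RNA, on the ribosome or in ubiquitin signalling. The KRAB class has expanded separately in many mammalian lineages, in clusters of similar genes. A shared symbol therefore says that both annotations gave the same name, and orthology was not checked. Reads of similar zinc finger genes may also be split between copies, since no source used here says how multiply mapped reads were treated.

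The guinea pig library held 24515642 counts in genes and the naked mole-rat libraries 13512223 to 29561451. Levels are given as counts per 1000000 counts of the library (CPM), which hold the effect of transcript length, so the order of different genes is an order of CPM and not of transcript copies. With 1 guinea pig library no test between species was possible, and p-values are not given. The 95% exact Poisson intervals cover counting error only. Among naked mole-rat libraries replicate 1 stood apart. The summed level of 18 listed granulosa and cumulus genes came to 6778 CPM there, to 2090.0 CPM in replicate 5 and to between 1033 and 1255 CPM in replicates 2 to 4, and 16 of the 18 were highest in replicate 1. Has2 and Tnfaip6 were the exceptions, and Has2 was lowest in replicate 1, with 130 CPM against 227 to 464 CPM in the others. In replicate 2, Has2 and Nr5a2 led the sum with 454 and 248 CPM, and the next, Esr2, had 127 CPM. The guinea pig library had 815 CPM for the same list. The 24 listed oocyte genes with an entry summed to 18583 CPM in guinea pig, 10296 CPM in naked mole-rat replicate 1 and 19259.5 to 24702 CPM in replicates 2 to 5, and none of them had 0 counts in guinea pig or in all naked mole-rat libraries. The 11 stroma genes summed to 393 CPM in guinea pig, against 218 CPM in replicate 1 and from 6.12 to 46.7 CPM in replicates 2 to 5. The 11 immune genes summed to 13.5 CPM in guinea pig and 115 CPM in replicate 1, and from 5.43 to 27.1 CPM in replicates 2 to 5, with C1qc and Cd79a at 0 in guinea pig and Cd3e and Cd79a at 0 in naked mole-rat. The 9 endothelial genes summed to 596 CPM in guinea pig, 107 CPM in replicate 1 and from 115 to 279 CPM in replicates 2 to 5, with Cldn5 at 0 in naked mole-rat. Of the endothelial genes, Tek and Flt1 led the guinea pig sum with 450 and 102 CPM, and the next, Kdr, had 11.6 CPM. Tek and Flt1 were also the highest of that list in every naked mole-rat library. In such bulk samples, a smaller share of a cell type and less RNA per cell cannot be told apart.

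The zinc finger genes were expressed at moderate levels in both species. The median was 26.4 CPM in guinea pig and 22.1 CPM over the naked mole-rat means, against 14.2 and 15.6 CPM over all shared symbols. The middle 50% of the genes lay between 6.20 and 65.1 CPM in guinea pig and between 8.25 and 51.7 CPM in naked mole-rat. For all shared symbols these limits were 0.938 and 61.3 CPM in guinea pig and 1.51 and 57.7 CPM in naked mole-rat, with the wider gap between zinc finger genes and all shared symbols at the low end. A level of 1 CPM was reached by 186 of the 205 in guinea pig (90.7%) and in every naked mole-rat library by 165 (80.5%). Over all shared symbols these shares were 74.6% and 63.2%. At the high end, 33 of the 205 had 100 CPM or more in guinea pig and 22 in the naked mole-rat mean, shares of 16.1% and 10.7%, where all shared symbols had 16.2% and 15.5%. All 205 together took 11295 CPM in guinea pig. In naked mole-rat replicates 1 to 5 they took 9231, 10208, 9637, 9834 and 9345 CPM, a mean of 9651 ± 392 CPM (SD, n = 5). The guinea pig sum lay above all 5 libraries, at 1.11 times the highest.

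**Figure D1:**
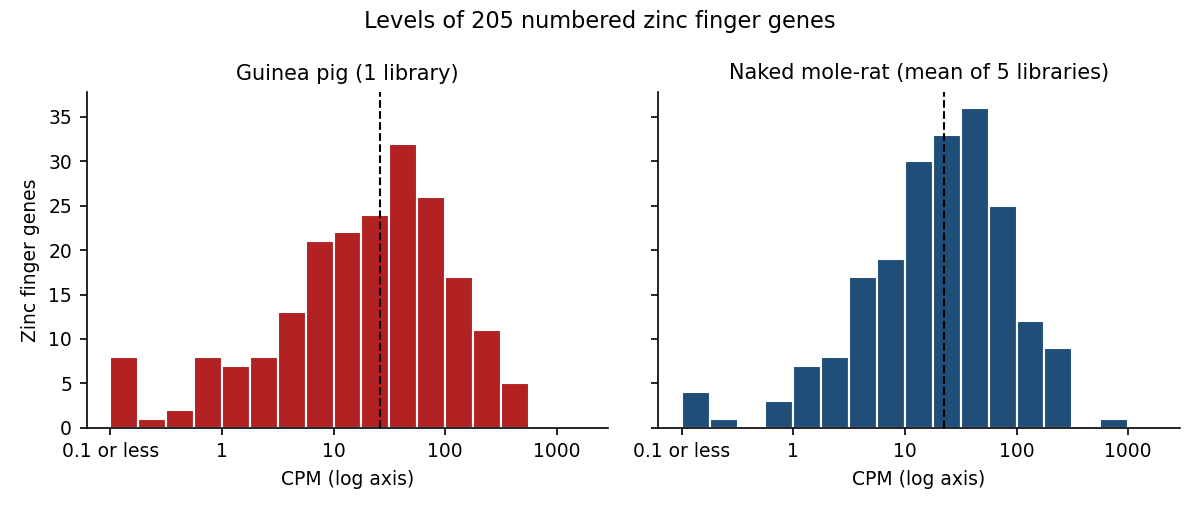
Number of zinc finger genes (y axis) by level in CPM (x axis, log scale) in the guinea pig library (left) and in the mean of the 5 naked mole-rat libraries (right). The first bar holds the genes under 0.1 CPM too, and dashed lines mark the medians of 26.4 and 22.1 CPM. Both distributions peak between 10 and 100 CPM.

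In guinea pig oocytes the highest zinc finger gene was Znf217, at 553 CPM (95% exact Poisson interval 543 to 562). It encodes a partner of corepressor complexes with the histone demethylase LSD1 and is amplified in human breast cancers. The naked mole-rat libraries had 106, 166, 94.7, 129 and 187 CPM in replicates 1 to 5, all below guinea pig by 2.95 times or more. Znf212 had 382 CPM in guinea pig and 83.7, 95.1, 76.5, 71.3 and 95.5 CPM in naked mole-rat. The ubiquitin ligase gene Zfp91 had 361 CPM in guinea pig and 193, 289, 240.0, 303 and 216 CPM in naked mole-rat, so that it ranked among the 8 highest in both species. Znf18, which encodes both a SCAN and a KRAB domain, had 323 CPM in guinea pig against 56.6, 105, 69.4, 88.2 and 87.7 CPM. Znf451, a SUMO ligase gene, had 319.8 CPM in guinea pig and 65.3, 106, 105, 95.2 and 53.7 CPM in naked mole-rat. Both lay above the naked mole-rat range, by 3.07 and 3.01 times its upper end. Znf664 had 290.1 CPM in guinea pig, within the naked mole-rat values of 213, 291, 304, 324 and 281 CPM. The remaining genes of the 8 highest in guinea pig were Znf25 and Znf106, given below.

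In naked mole-rat oocytes Znf106, which encodes an RNA-binding protein, stood far above the other zinc finger genes. It had 279 CPM in guinea pig and 475, 982, 1029, 893 and 574 CPM in naked mole-rat replicates 1 to 5. All 5 libraries lay above guinea pig, and the gene made up 8.19% of the summed zinc finger level in naked mole-rat. Znf184, a KRAB zinc finger gene, followed with 116 CPM in guinea pig and 169, 318, 347, 332 and 385 CPM in naked mole-rat. Znf646 had 234 CPM in guinea pig and 192, 343, 272, 272 and 399.8 CPM in naked mole-rat, with guinea pig inside the range. Znf638, which encodes a nuclear protein that acts on splicing and on the silencing of retroviral DNA, had 223 CPM in guinea pig and 217, 283, 302, 339 and 186 CPM in naked mole-rat. Znf574 had 67.5 CPM in guinea pig, below all the naked mole-rat values of 162, 235, 197, 215 and 320.0 CPM. Znf507 had 194 CPM in guinea pig and 114, 264, 264, 298 and 129.7 CPM in naked mole-rat. For Znf507, replicates 1 and 5 lay below guinea pig and the other libraries above it. The 10 highest genes held 29.2% of the summed zinc finger level in guinea pig and 31.4% in naked mole-rat. Of the 20 highest in each species, 9 were shared. Over all 15082 shared symbols 7 of the 20 highest were, but 20 is a far smaller part of that number than of 205.

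**Figure D2:**
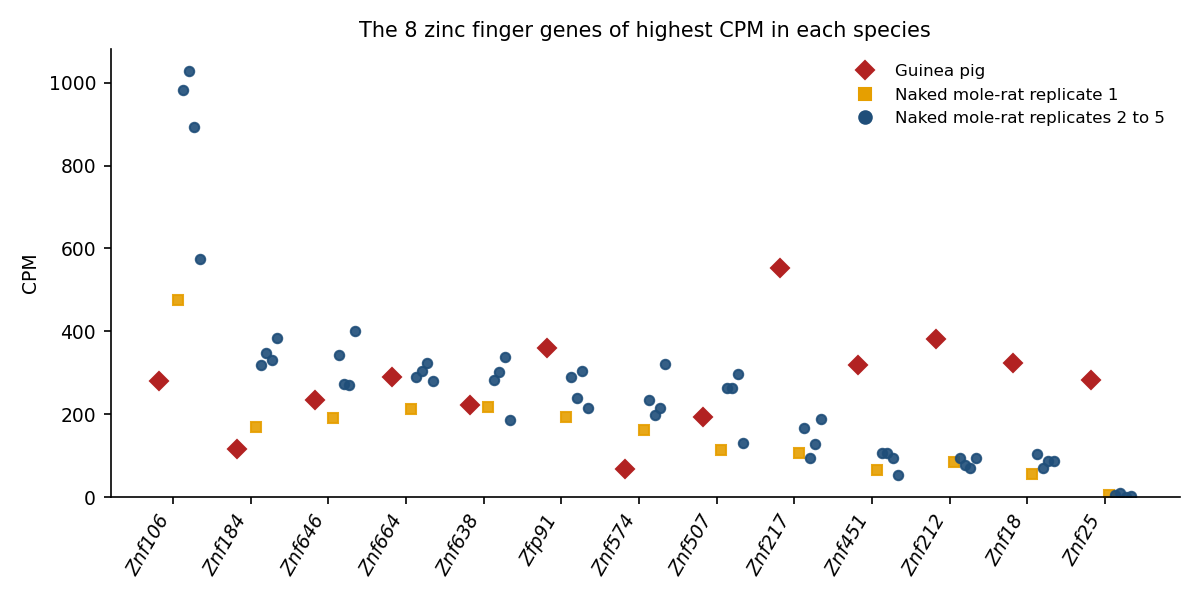
CPM (y axis, linear) of the zinc finger genes among the 8 highest of guinea pig or of naked mole-rat, ordered by the naked mole-rat mean. Diamonds are the guinea pig library, squares naked mole-rat replicate 1 and circles replicates 2 to 5. Znf106 reaches 1029 CPM in naked mole-rat against 279 CPM in guinea pig, while Znf217 is highest in guinea pig at 553 CPM.

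A small number of zinc finger genes had no counts in a species. Znf683 and Znf750 had 0 counts in all 6 libraries, which allows up to 0.122 CPM in guinea pig and 0.101 to 0.222 CPM in naked mole-rat (3 counts per library). Znf683 encodes a factor of resident T cells (Hobit) and Znf750 a factor of epidermal differentiation in human. Znf831 had 12 counts in guinea pig (0.489 CPM, 95% exact Poisson interval 0.253 to 0.855) and 0 in every naked mole-rat library. Guinea pig had 0 counts for 4 further genes, Znf157, Znf461, Znf514 and Znf648, which had 30 to 216, 21 to 162, 5 to 77 and 5 to 63 counts in the naked mole-rat libraries. At least 1 naked mole-rat library had 0 counts for 24 of the 205 genes and for 4574 of the 15082 shared symbols. Replicate 1 had 3 genes at 0, although it was the shallowest library, and replicates 2 to 5 had 15, 20, 6 and 8. Over all shared symbols the numbers at 0 were 1579 in replicate 1 and 3374, 3938, 2892 and 2638 in replicates 2 to 5. Replicate 1 also had the highest median over the 205, at 29.6 CPM against 17.8 to 22.0 CPM. The same held over all shared symbols, at 22.1 CPM against 9.79 to 14.3 CPM.

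Across the 5 naked mole-rat libraries the zinc finger genes varied about as much as other genes. The 129 with 100 counts or more in every library had a median coefficient of variation (CV, the SD over the mean) of 29.6%, and the 7623 shared symbols that met the same minimum had 31.6%. Between 10 and 100 CPM the medians were 30.9% for 106 zinc finger genes and 33.6% for 5209 shared symbols. Counting error alone would give a median of 3.37% at these depths. Without replicate 1 the medians for the same genes were 25.9% and 25.8%. Across the 205 genes, which are not independent, Spearman's rho was 0.746 to 0.853 in the 4 pairs that hold replicate 1 and lay between 0.906 and 0.966 in the 6 that do not. Over all shared symbols, which include more silent genes, rho was 0.855 to 0.928 with replicate 1 and 0.942 to 0.965 without it. The points of a pair come from the same 2 libraries and hence the same depths.

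The steadiest of these 129 genes was Znf207, which encodes BuGZ, a protein of the spindle that loads the checkpoint protein BUB3. It had 97.3 CPM in guinea pig and 155, 170.1, 163, 200.3 and 159 CPM in naked mole-rat replicates 1 to 5, with a CV of 10.7%. Znf212 had a CV of 12.8% with the values given above, and Znf746, whose product PARIS is a substrate of the ubiquitin ligase parkin, had 86.4 CPM in guinea pig and 68.3, 60.2, 87.4, 72.5 and 79.9 CPM in naked mole-rat, with a CV of 14.2%. Znf592, of the Z3 complex described below, had a CV of 14.2%. The counting error of these 4 genes was a CV of 1.69% to 2.64%, which leaves out the preparation of separate libraries.

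The most variable of the 129 were high in replicate 1. Znf827, which recruits the NuRD complex to telomeres in human cells, had 4.12 CPM in guinea pig and 67.9, 4.25, 8.98, 9.59 and 19.6 CPM in naked mole-rat replicates 1 to 5, with a CV of 119% and 60.9% without replicate 1. Znf462, a partner of the H3K9 methyltransferases G9a and GLP, had 8.24 CPM in guinea pig and 91.9, 7.26, 7.82, 10.6 and 46.4 CPM, with a CV of 113%. Without replicate 1 its CV was still 105%, and replicate 5 was the highest of the remaining libraries. Znf146, whose protein consists almost only of zinc fingers, had 142 CPM in guinea pig and 87.6, 14.0, 8.91, 17.5 and 23.4 CPM, with a CV of 107% and 38.1% without replicate 1. Znf292, named in human neurodevelopmental disorders, had 17.8 CPM in guinea pig and 275, 22.2, 88.8, 46.4 and 65.0 CPM, with a CV of 102% and 50.8% without replicate 1. For all 4 genes replicate 1 was 1.98 to 3.75 times the highest other library. In the same libraries the granulosa genes stood at the summed levels given above, which were also highest in replicate 1 and next highest in replicate 5, and their part in these differences was not tested.

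Replicate 1 was over 2 times the highest other library for 11 of the 129 zinc finger genes, or 8.53%, where 10.4% of the 7623 shared symbols were. Besides Znf827, Znf146 and Znf292 these included Znf362 and Znf697, which were chosen after their values were seen. Znf362 had 193, 46.8, 53.4, 59.4 and 96.0 CPM in replicates 1 to 5, and Znf697 had 169.8, 29.0, 22.3, 39.2 and 63.8 CPM. Replicate 1 was below the lowest other library by over 2 times for 2 genes, Znf131 and Znf473, or 1.55%, against 3.49% of the shared symbols. Znf473, which takes part in histone mRNA processing, had 15.5, 56.9, 47.4, 53.9 and 49.7 CPM in replicates 1 to 5, and Znf131 is given below. Abundant zinc finger genes were mostly low in replicate 1. Of 25 with a mean of 100 CPM or more in replicates 2 to 5, 22 were lowest in replicate 1 (88.0%), and 60.9% of the 2269 shared symbols of that level were. Of 49 zinc finger genes under 30 CPM in replicates 2 to 5, 27 were highest in replicate 1 (55.1%), close to the 56.7% of all shared symbols of that level. After scaling by the median of ratios, 24 of the 25 abundant genes and 1590 of the 2269 shared symbols of that level were lowest in replicate 1. The levels were taken from replicates 2 to 5, so this choice itself favours low values of replicate 1 in abundant genes. It favours high values under 30 CPM, where the minimum of 100 counts also leaves out genes low in replicate 1. Replicate 5 was set against the other libraries in the same way. It was lowest for 2 of 24 abundant zinc finger genes and 397 of 2308 shared symbols.

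**Figure D3:**
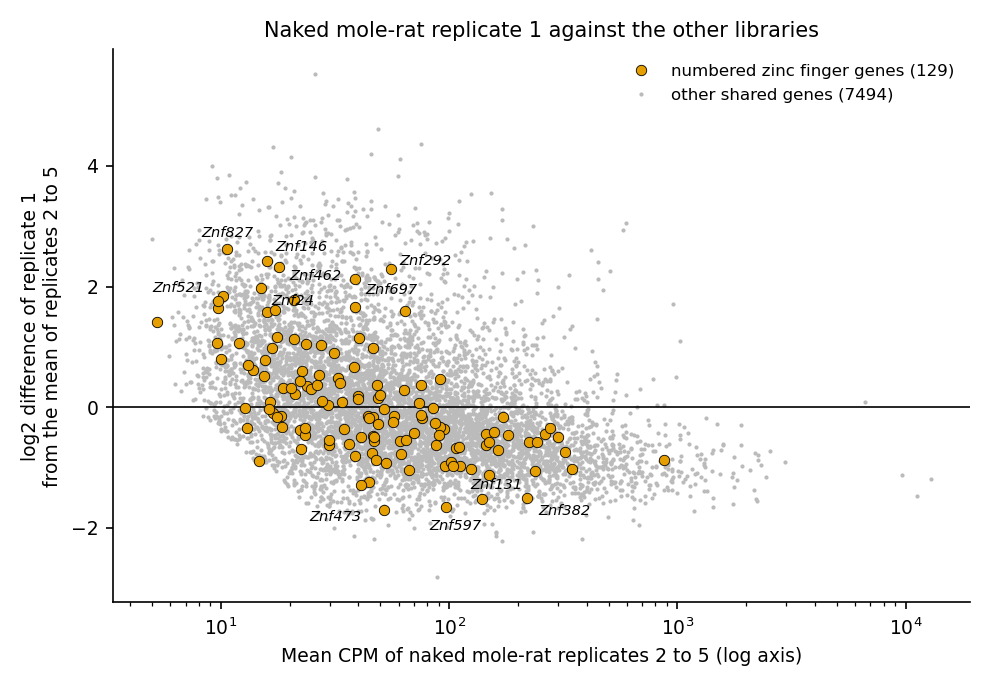
log2 difference of naked mole-rat replicate 1 from the mean of replicates 2 to 5 (y axis) against that mean in CPM (x axis, log scale) for genes with 100 counts or more in every naked mole-rat library. Large points are 129 zinc finger genes and small grey points the other shared genes. The mean on the x axis also enters the y axis. Zinc finger genes of 100 CPM or more lie below the line at 0, with a median of -0.68, and those under 30 CPM lie mostly above it, with a median of 0.52.

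Guinea pig and naked mole-rat were compared gene by gene for the 177 zinc finger genes with 100 counts or more in guinea pig, or in each of the 5 libraries of naked mole-rat. The other 28 did not meet this minimum. A gene was called higher where the guinea pig CPM was over 4 times the highest naked mole-rat library and lower where it was under the lowest divided by 4. By this rule 14 zinc finger genes were higher in guinea pig and 13 were lower. Of the 10279 shared symbols compared in the same way, 8.95% were higher and 8.35% lower. The zinc finger genes were thus called about as often, at 7.91% and 7.34%. A minimum that can be met in 1 species favours genes that are low in the other. It was met only in guinea pig by 48 of the 177, among them 9 of the 14 called higher, and only in naked mole-rat by 9, among them 7 of the 13 called lower. With 100 counts or more in all 6 libraries, 5 of 120 were higher and 6 were lower, where 3.26% and 4.72% of shared symbols were. A fold of 2 in place of 4 gave 40 and 28 genes, against 18.5% and 15.1% of shared symbols, and a fold of 8 gave 7 and 6, against 4.54% and 4.96%. Without naked mole-rat replicate 1 the number of higher genes was 24, with 13.7% of all shared symbols higher, and the number of lower genes was 16, with 10.2% lower. All 14 and all 13 were among them, as the rule requires, because leaving out a library can add calls but not remove them. Of the 177, 64 lay above the naked mole-rat range in guinea pig, 60 within it and 53 below it, where 37.2% of shared symbols lay above and 29.1% below.

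The rank order of zinc finger levels was only partly shared between the species. Spearman's rho between guinea pig and the naked mole-rat mean was 0.561 over the 205 genes and 0.779 over all 15082 shared symbols. The shared symbols include more silent genes. Where all 6 libraries had 100 counts or more, rho was 0.396 over 120 zinc finger genes and 0.524 over 6992 shared symbols, and the SD of the log2 ratio was 1.59 and 1.49. These are descriptions across genes of the same libraries, with no test of the difference, and the lengths of the gene models in the 2 annotations enter both. The median log2 ratio of guinea pig over naked mole-rat, with 0.5 CPM added to each, was 0.14 over the 177 zinc finger genes and 0.12 over all shared symbols compared. With 100 counts in all 6 libraries both medians were below 0, at -0.13 and -0.14, so no common direction was seen.

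**Figure D4:**
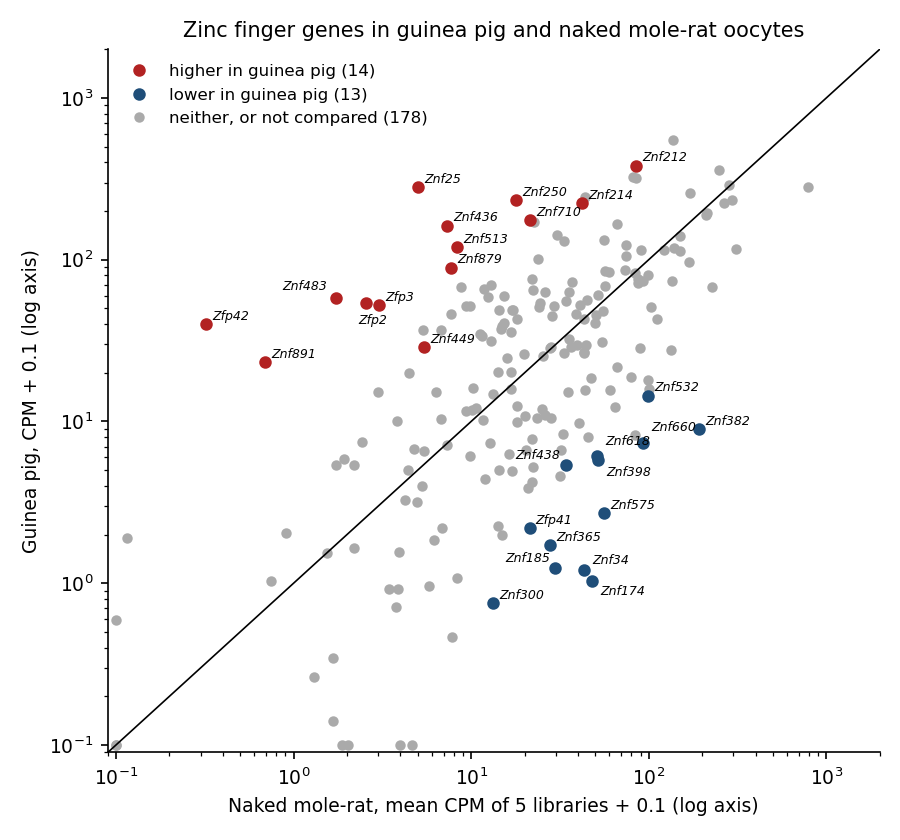
Guinea pig CPM (y axis) against the mean CPM of 5 naked mole-rat libraries (x axis) for the 205 zinc finger genes, both with 0.1 added and on log scales. The line marks equal values. The 14 genes higher in guinea pig and the 13 lower are coloured and named, and Zfp42 lies farthest above the line with 39.9 CPM in guinea pig.

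Of the genes higher in guinea pig, Zfp42 showed the largest fold. It encodes REX1, a marker of pluripotent cells in mouse. It had 979 counts or 39.9 CPM in guinea pig (95% exact Poisson interval 37.5 to 42.5), against 2, 6, 0, 21 and 0 counts in naked mole-rat replicates 1 to 5. The highest of these was 0.749 CPM, which guinea pig exceeded by 53.3 times. Znf25, a KRAB zinc finger gene, had 282 CPM in guinea pig, where it was among the 8 highest, and 6.07, 4.40, 10.4, 0.321 and 3.55 CPM in naked mole-rat. Guinea pig was 27.2 times the highest of these, and replicate 4 held only 9 counts. Znf891, another KRAB gene, had 23.1 CPM in guinea pig and 0.592, 0.953, 0, 1.36 and 0.0677 CPM in naked mole-rat, a fold of 17.0 over the highest. Zfp2 had 54.0 CPM in guinea pig and 3.48, 4.40, 3.11, 0.285 and 1.05 CPM in naked mole-rat, a fold of 12.3. These 4 genes were picked for their large folds over the highest naked mole-rat library. They met the minimum of 100 counts only in guinea pig, which favours genes low in naked mole-rat. So did Znf483, Zfp3, Znf879, Znf513 and Znf449, given below.

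Znf436, a KRAB gene, had 162 CPM in guinea pig and 14.8, 4.22, 8.76, 4.14 and 3.99 CPM in naked mole-rat, a fold of 11.0 over the highest library. That library was replicate 1. Znf483, a SCAN gene, had 57.9 CPM in guinea pig and 5.33, 0, 0, 1.96 and 0.913 CPM in naked mole-rat, again highest in replicate 1, with a fold of 10.9. Znf250, a KRAB gene, had 235 CPM in guinea pig and 14.7, 17.1, 12.5, 16.6 and 28.0 CPM in naked mole-rat, a fold of 8.38. Zfp3 had 52.5 CPM in guinea pig and 6.66, 1.36, 1.81, 1.18 and 3.59 CPM in naked mole-rat, a fold of 7.89. These folds are taken against the library nearest to guinea pig and are therefore the smallest of the 5. The other 6 genes called higher were Znf879, Znf513, Znf710, Znf449, Znf214 and Znf212, with folds of 7.61 to 4.0. Znf212 lay at the threshold, with a fold of 4.0, and was not called after scaling by the median of ratios. That scaling added Zfp90, Znf148 and Znf296, so that 16 genes were higher, against 9.87% of all shared symbols. Znf296, with 245 CPM in guinea pig and 31.6, 52.9, 20.9, 49.3 and 63.5 CPM in naked mole-rat, lay just under the threshold in CPM, at 3.87. Znf296 was also called higher without replicate 5. It was chosen after its value was seen.

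Of the genes lower in guinea pig, Znf174, which encodes a SCAN domain, differed most. It had 23 counts or 0.938 CPM in guinea pig (95% exact Poisson interval 0.595 to 1.41) and 27.5, 62.9, 54.5, 54.4 and 38.9 CPM in naked mole-rat replicates 1 to 5, the lowest of which was 29.3 times the guinea pig level. Znf34, a KRAB gene, had 1.10 CPM in guinea pig and 25.8, 51.4, 57.1, 36.1 and 45.8 CPM in naked mole-rat, a fold of 23.4 for the lowest library. Znf185 had 1.14 CPM in guinea pig and 29.97, 23.9, 29.98, 25.7 and 37.9 CPM in naked mole-rat, a fold of 21.0. Its product is an actin-associated LIM domain protein and not a C2H2 factor, and it belongs here by its symbol only. Znf575 had 2.61 CPM in guinea pig and 51.6, 64.9, 65.9, 48.6 and 49.6 CPM in naked mole-rat, a fold of 18.6. Znf365, which encodes a centrosomal protein with a role in genome stability, had 1.63 CPM in guinea pig and 20.1, 29.2, 34.0, 27.7 and 27.6 CPM in naked mole-rat, a fold of 12.3. The naked mole-rat libraries of these 5 genes lay within 20.1 to 65.9 CPM. All 5 were picked for the large fold of the lowest library and met the minimum of 100 counts only in naked mole-rat. That choice itself leaves out genes low in any naked mole-rat library. Zfp41 and Znf300, given below, also met the minimum only there.

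Znf382, which encodes a KRAB repressor, was among the abundant genes in naked mole-rat, with 8.85 CPM in guinea pig and 77.3, 333, 226, 219.7 and 102 CPM in naked mole-rat. The lowest library was 8.74 times the guinea pig level, and replicates 1 and 5 lay below the others. Zfp41 had 2.08 CPM in guinea pig and 16.9, 22.7, 18.5, 15.8 and 32.3 CPM in naked mole-rat, and Znf660 had 7.26 CPM in guinea pig and 53.9, 112, 123, 99.2 and 73.6 CPM, with folds of 7.58 and 7.42. The 5 further genes called lower were Znf300, Znf398, Znf532, Znf438 and Znf618, with folds of 7.05 to 4.17. Of these, Znf438 was not called after scaling by the median of ratios. All 13 were called lower without each naked mole-rat library in turn. The rule fixes this in advance, because leaving out a library cannot remove a call. Of the 13, 12 were under 10 CPM in guinea pig. The rule favours low values there, since it requires guinea pig to lie over 4 times below the lowest library. Of the 14 genes called higher, 6 were under 10 CPM in every naked mole-rat library.

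**Figure D5:**
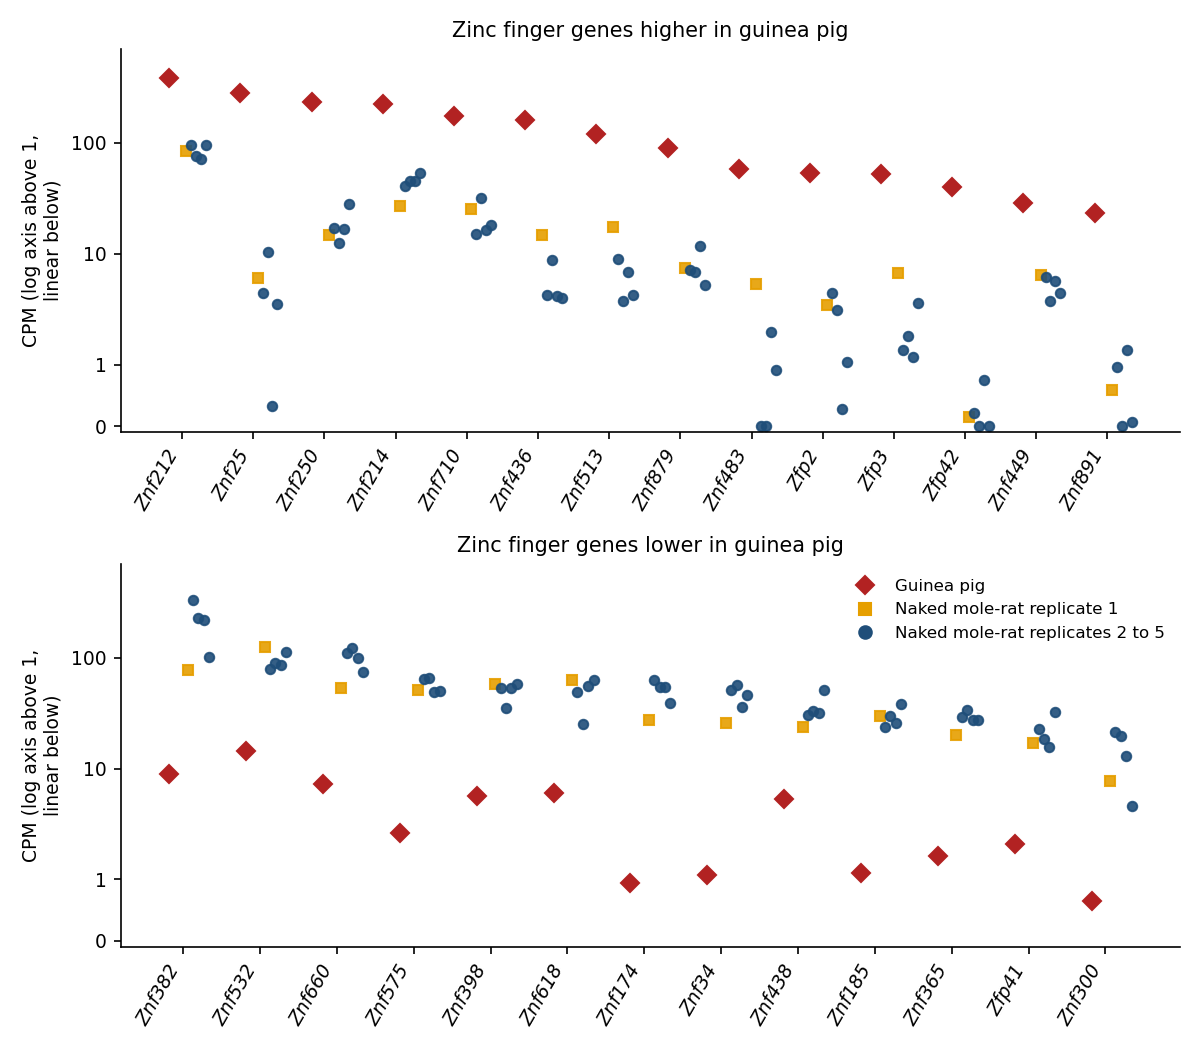
CPM (y axis, log scale above 1 and linear below) of the 14 zinc finger genes higher in guinea pig (top) and the 13 lower (bottom). Diamonds are the guinea pig library, squares naked mole-rat replicate 1 and circles replicates 2 to 5. By the call rule, every naked mole-rat library lies on the same side of guinea pig in each gene, by over 4 times. The smallest folds are 4.0 in the top panel and 4.17 in the bottom panel.

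The zinc finger genes were also read by known role, with lists chosen when earlier results of these data were known. Of the 3 genes of the Z3 complex, which joins the chromatin reader ZMYND8, Znf532 was lower in guinea pig and Znf592 and Znf687 were not called. Znf592 had 259.8 CPM in guinea pig and 132, 189, 171, 170.1 and 194 CPM in naked mole-rat, above all 5 libraries. Znf532 had 14.4 CPM in guinea pig and 126, 79.0, 89.4, 85.7 and 112 CPM in naked mole-rat. Znf687 had 45.6 CPM in guinea pig and 90.1, 37.1, 19.0, 37.2 and 68.6 CPM in naked mole-rat. The order of the 3 CPM values was thus led by Znf592 in both species, while Znf532 lay below Znf687 in guinea pig and above it in every naked mole-rat library.

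None of the 7 genes listed for chromatin and imprinting was called in either direction, where 8.95% and 8.35% of all shared symbols were. Besides Znf217 and Znf462, Znf410, an activator of the NuRD subunit gene Chd4, had 71.6 CPM in guinea pig and 72.6, 119, 81.4, 84.5 and 79.2 CPM in naked mole-rat. Znf644, of the G9a and GLP complex, had 26.4 CPM in guinea pig and 61.3, 45.7, 29.3, 49.7 and 28.7 CPM in naked mole-rat. Guinea pig lay just below the naked mole-rat range for both. Znf445, which keeps methylation at imprinted genes in mouse and human embryos, was singled out from the list after its values were seen. It had 6.53 CPM in guinea pig (95% exact Poisson interval 5.55 to 7.62) and 77.0, 12.0, 5.87, 20.8 and 43.3 CPM in naked mole-rat replicates 1 to 5. Guinea pig fell within this range, near replicate 3, and the naked mole-rat libraries themselves differed by 13.1 times.

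Of the 8 listed genes with roles in RNA and the ribosome, none was called, and this and the counts that follow stand against 8.95% of all shared symbols higher and 8.35% lower. Znf830, a splicing-related gene, had 73.3 CPM in guinea pig and 52.1, 112, 102, 94.1 and 106 CPM in naked mole-rat. Znf598, the sensor of collided ribosomes, had 60.6 CPM in guinea pig and 51.1, 46.6, 45.3, 36.6 and 79.0 CPM in naked mole-rat, and Zfp36, which encodes the mRNA decay factor tristetraprolin with CCCH fingers, had 15.0 CPM in guinea pig and 45.7, 33.7, 23.1, 22.0 and 50.9 CPM. Guinea pig was inside the naked mole-rat range for Znf830 and Znf598 and below it for Zfp36. None of the 3 ubiquitin and SUMO genes, Zfp91, Znf451 and Znf598, or the spindle gene Znf207 was called either. The 11 listed sequence-specific regulators had 1 gene called, Zfp42, among the 10 compared. Znf131 had 114 CPM in guinea pig and 48.3, 132, 136, 177 and 114 CPM in naked mole-rat. Znf143, an activator of small nuclear RNA genes, had 42.9 CPM in guinea pig and 60.6, 141, 117, 116 and 123 CPM. Znf384 had 26.7 CPM in guinea pig and 39.0, 36.8, 37.6, 40.5 and 62.6 CPM, and Zfp64 had 51.3 CPM in guinea pig and 39.0, 17.7, 32.6, 15.0 and 42.5 CPM. Guinea pig lay below all 5 libraries for Znf143 and Znf384, within them for Znf131 and above them for Zfp64. Of 17 listed SCAN genes with an entry in both species, a list that leaves out Znf18, 16 were compared, with 2 higher in guinea pig (Znf449 and Znf483) and 1 lower (Znf174). Counts this small cannot be set apart from the shares over all shared symbols. The most abundant of them in naked mole-rat were Znf397, with 189.6 CPM in guinea pig and 151, 246, 254, 250.3 and 145 CPM in naked mole-rat, and Znf394, with 27.5 CPM and 68.1, 162, 165, 165 and 106 CPM. Znf202 had 68.7 CPM in guinea pig and 41.2, 60.1, 79.1, 49.1 and 55.0 CPM in naked mole-rat.

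The corepressor that KRAB zinc finger proteins need was expressed in both species. All 15 listed corepressor and SUMO pathway genes with an entry reached 1 CPM in each of the 6 libraries, as did 8934 of the 15082 shared symbols. Of the 15, 1 was higher in guinea pig and none lower, against 8.95% and 8.35% of the shared symbols compared. The most abundant in naked mole-rat was Rbbp4, a histone chaperone gene, with 287 CPM in guinea pig and 389, 843, 843, 762 and 463 CPM in naked mole-rat replicates 1 to 5. Its paralogue Rbbp7 had 79.3 CPM in guinea pig and 317, 569.8, 629, 534 and 434 CPM in naked mole-rat. The lowest of these was 3.997 times the guinea pig level, so Rbbp7 only just missed a call as lower. Chd4, the NuRD helicase gene, had 361 CPM in guinea pig and 421, 363, 326, 350.3 and 480.4 CPM in naked mole-rat. Trim28, Setdb1 and Cbx3 are given as central genes of the pathway, chosen after their values were seen. Trim28 had 197 CPM in guinea pig and 211, 31.9, 50.7, 34.8 and 103 CPM in naked mole-rat, with guinea pig inside a range whose upper end was replicate 1. Setdb1 had 138 CPM in guinea pig and 145, 165, 148, 122 and 176 CPM in naked mole-rat, a narrow range that held the guinea pig value. Atf7ip, the partner that stabilises SETDB1, had 159 CPM in guinea pig, below all of 270.3, 473, 549, 517 and 352 CPM in naked mole-rat. Sumo2, the modifier that TRIM28 needs to bind SETDB1, was the gene called, with 348 CPM in guinea pig and 35.6, 39.7, 43.6, 79.6 and 48.1 CPM in naked mole-rat. Cbx3, which encodes the heterochromatin protein HP1 gamma, had 122 CPM in guinea pig and 49.7, 4.14, 2.32, 4.85 and 8.42 CPM in naked mole-rat. Its guinea pig level was 2.45 times replicate 1 and so was not called, although replicates 2 to 5 were all under 10 CPM.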

How the data were processed

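Oocyte RNA depleted of ribosomal RNA was sequenced by the authors from directional libraries as 150 bp paired reads. The authors mapped the reads with HISAT2 to Cavpor3.0 (guinea pig) or HetGla_female_1.0 (naked mole-rat) and counted them per gene in SeqMonk 1.47.2, and the deposited values are raw counts. For naked mole-rat, Trim Galore is given as 0.6.2 in the methods but 0.6.1 in the submitters' processing notes, and HISAT2 as 2.0.5 but 2.1.0. No source used here states strand handling, multiply mapped reads or gene lengths.

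CPM was computed on column totals in Python 3.11.15 with pandas 2.3.3 and scipy 1.17.1. Symbols that look like dates or stand more than 1 time in a table were left out of the shared symbols, and 1 zinc finger symbol is not reported here. Every pair of naked mole-rat libraries differed by more than sampling noise (chi-square over the number of genes, 50.6 to 517). The genes, lists and rules were chosen with earlier results of these data known. Named were the 8 highest per species, up to 8 called genes of largest fold each way, the 4 highest and 4 lowest CVs, and up to 4 of highest naked mole-rat level per list. The call rule was run on simulated counts with large set changes and counting error only. That run cannot show how the rule behaves with the spread between these libraries. Alternatives were other scalings, minimums, folds and pseudocounts, and leaving out each naked mole-rat library. The coruro counts were not used.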

Additional observations from a re-analysis of the deposited data

Results flagged for a closer look

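The number after each gene here is how far its most remote naked mole-rat library lay from the next one, as a share of the whole range of 5. It was computed for 51 named genes and summed levels, and 5 genes stood apart, where chance gives about 1 in 20, or 2.55 of 51, for independent values. The comparison with chance is no test here, since Znf146, Znf827 and Znf292 were named for their high CV. Replicate 1 stood apart as highest for Znf146 (0.816), with 87.6 CPM against 8.91 to 23.4 CPM in the others. It did so for Znf827 (0.758), with 67.9 CPM against 4.25 to 19.6 CPM, and for Znf292 (0.737), with 275 CPM against 22.2 to 88.8 CPM. Replicate 5 stood apart as highest for Znf384 (0.856), with 62.6 CPM against 36.8 to 40.5 CPM. Replicate 2 stood apart as highest for Znf410 (0.743), with 119 CPM against 72.6 to 84.5 CPM. Over all 129 zinc finger genes with 100 counts or more in every library, 16 stood apart (12.4%), 10 of them as highest in replicate 1. Of the 7623 shared symbols with that minimum, 969 did (12.7%), 653 of them as highest in replicate 1.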

How the results depend on the processing

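Of 65 alternative values for 9 results, 54 kept their direction and stayed within 1.5 times the reported count or within the spread between replicates, 8 moved further and 3 changed sign. Among counts, the widest of the 54 were the detected genes at a minimum of 10 CPM in place of 1, with 137 in guinea pig in place of 186 and 111 in every naked mole-rat library in place of 165. Another was the 18 genes lower in guinea pig with no minimum in place of 13. With no minimum, 9% of all shared symbols were lower, against 8.35% as reported. The counts of genes higher and lower in guinea pig followed the fold required. They were 40 and 28 at a fold of 2, where 18.5% and 15.1% of all shared symbols were called, and 7 and 6 at a fold of 8, where 4.54% and 4.96% were. A minimum of 100 counts in all 6 libraries, added after the data were seen, gave 5 and 6, where 3.26% and 4.72% were called. Leaving out 1 naked mole-rat library gave 14 to 24 higher and 13 to 16 lower genes, where 9.03% to 13.7% and 8.5% to 10.2% of shared symbols were called. The value of 24 came from leaving out replicate 1. By the rule, these numbers cannot fall below the reported 14 and 13. The median log2 ratio of guinea pig over naked mole-rat changed sign with the count minimum, to -0.016 at 10 counts, -0.068 with no minimum and -0.13 with 100 counts in all 6 libraries, and was 0.042 to 0.17 without 1 library. The cause was not tested. The median CV was 36.2% with no minimum, which lets in genes of few counts. No paired analysis was possible because guinea pig has 1 library. Depth limits the genes under about 100 counts, and 1 guinea pig library gives no spread between animals.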
